A study of Mus musculus with 9 samples.

Results

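The 10 genes described here mark the satellite glia of the dorsal root ganglion (DRG), the ganglion that holds the cell bodies of sensory neurons. They are Glul, Slc1a3, Aqp4, Gja1, Cadm2, Cdh19, Fabp7, Apoe, S100b and Sparcl1. Every probe of these genes was taken, by its name in the array files, an older name or a RefSeq identifier. They are 10 of the 19512 genes with a current symbol on the array, measured by 17 of its 41174 probes, and 16 of them were among the 31186 probes whose DRG signal was well above background on at least 4 of the 9 arrays. All 16 were in fact above background on all 9 arrays. The 1 probe left out, the third of Slc1a3, was at background on every array.

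The arrays were 2-colour Agilent mouse arrays with RNA of L3/L4 DRG from adult mice in Cy5 and a universal mouse reference RNA (Stratagene) in Cy3. In the injured group (5 arrays) the sciatic nerve had been transected 3 days earlier, and in the uninjured group (4 arrays) the labels give the treatment as control. The 3 days are those of the labels and the methods, and another passage of the study gives a shorter time. The labels of the uninjured samples also carry the phrase on transection, and whether those ganglia came from operated mice is not stated. All samples of both groups are labelled cre.neg and jun.wt. Strain, sex, exact age and the number of mice behind an array are not given, so the p-values measure the spread between these samples.

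Satellite glia form a thin sheath around each sensory neuron, joined to each other by gap junctions, and they take up the glutamate and potassium that the neuron releases. They share their origin in the neural crest with Schwann cells and several of their genes with astrocytes. After a nerve is cut they are known to react, with more of the filament protein GFAP and more coupling between cells. In RNA of a whole ganglion, fewer cells of a type and less RNA per cell cannot be told apart.

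After nerve transection the enzyme gene Glul rose on its brighter probe by 0.78 ± 0.09 (SE, n = 5 and 4) on the log2 scale, a 1.72-fold change. Its dimmer probe rose by 0.43 ± 0.11 (SE), a 1.34-fold change, and the groups of arrays overlapped there. The water channel gene Aqp4 fell on all of its 3 probes, by 0.31 to 0.52, and the adhesion gene Cadm2 fell on both of its probes, by 0.46 and 0.48. A probe of the glutamate transporter gene Slc1a3 was higher by 0.22. No probe of the other 6 genes passed the test, among them Fabp7, Apoe and S100b, whose signals were high in both groups. A probe was called when its adjusted p in limma, which fits each probe and adjusts over all 31186 with the Benjamini-Hochberg method, was under 0.05. Of the 16 probes tested, 8 were called, against 23.5% of all probes, with 3 higher (10.5% of all probes) and 5 lower (13.1% of all probes). These calls fell on 4 of the 10 genes, the 5 lower ones on Aqp4 and Cadm2 alone, and probes of the same gene are not independent. With the mean of a gene's probes, 3 of the 10 genes were called, and 5233 were called over all genes. The number of genes tested this way is not given here, so no share stands beside this count. The groups of arrays did not overlap for 7 of the 16 probes (22.5% of all probes), with all injured arrays above for 2 (10.1%) and below for 5 (12.5%). The median difference over the 16 probes was -0.11, and over all probes it was -0.0045.

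**Figure D1:**
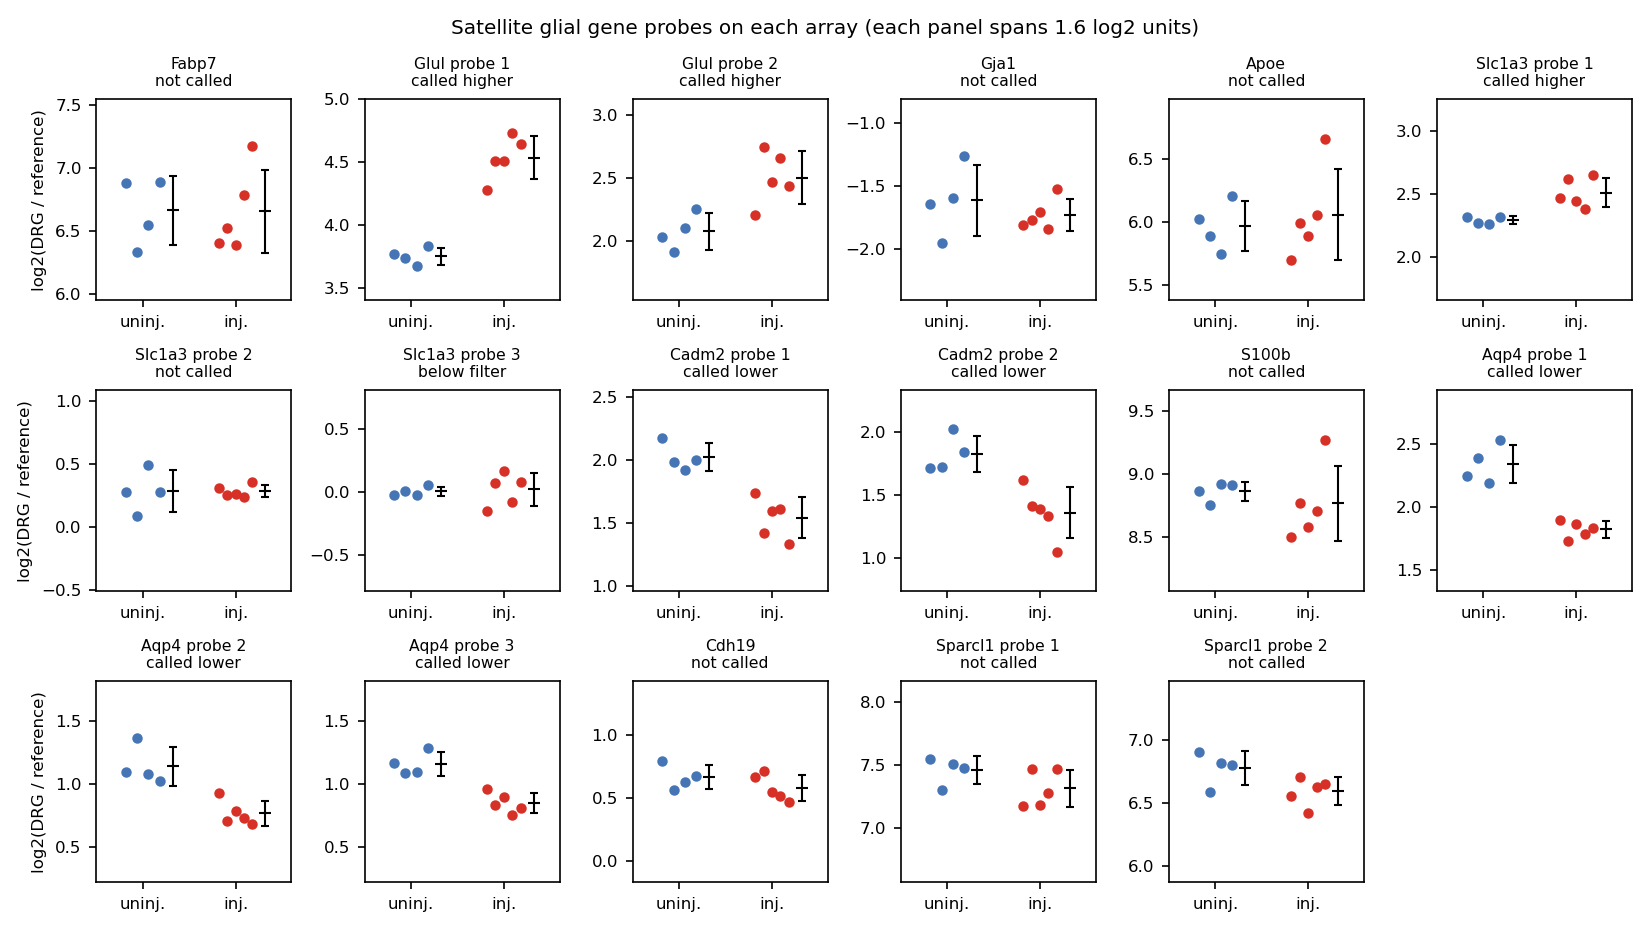
Each panel shows 1 probe of a satellite glial gene, with the log2 ratio of DRG over reference on the vertical axis, uninjured arrays (n = 4) in blue, injured arrays (n = 5) in red, and the mean ± SD of each group as a bar. Every panel spans the same 1.6 log2 units, so that the separation of the groups for Glul probe 1, Cadm2 and Aqp4 can be set against the overlap for Fabp7, Gja1, Apoe and S100b.

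The arrays were alike in brightness except in a few respects. The median Cy5 signal lay between 199.7 and 231.4 on uninjured arrays and between 156.3 and 237.8 on injured arrays, with injured array 5 the lowest, and 71.0% to 78.9% of spots were well above background. Injured array 2 had a patch of raised local background, and injured arrays 2 and 4 had raised muscle genes (1.74 and 2.89 above the uninjured mean on the log2 scale). The 9 arrays lay on 3 slides, and only 1 slide held both groups (uninjured array 1 with injured arrays 1, 2 and 5), so slide could be separated from injury only through 1 uninjured array. In the Cy3 channel, which held the same reference RNA throughout, 0 of the 16 probes were called, against 0.0994% of all probes, and 0 had an unadjusted p under 0.05 in limma. Arrays cannot be judged by read depth, and their number limits the precision.

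The stretches upstream of Glul, Slc1a3 and Cadm2 are shown because these genes carried called probes in opposite directions. Each has the 250 bases before the start of the RefSeq gene on GRCm38.p6, read 5′ to 3′ along the gene (Glul at chr1:153899679-153899928 on the + strand, Slc1a3 at chr15:8710808-8711057 and Cadm2 at chr16:67620909-67621158 on the - strand). Of the 10 genes, 7 had an entry in the RefSeq promoter table. The stretch of Aqp4, which also carried called probes, is not shown. Capitals mark the CCAAT box (CCAAT), the GC box (GGGCGG) and the TATA box (TATAAA) on either strand, so that ATTGG and TTTATA are matches on the other strand. No marked matches overlap.
Glul: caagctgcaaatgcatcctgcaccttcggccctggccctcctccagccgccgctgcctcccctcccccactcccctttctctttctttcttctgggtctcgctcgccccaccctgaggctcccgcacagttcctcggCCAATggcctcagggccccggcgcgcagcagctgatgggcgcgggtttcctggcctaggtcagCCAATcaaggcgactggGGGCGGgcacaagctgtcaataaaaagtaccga
Slc1a3: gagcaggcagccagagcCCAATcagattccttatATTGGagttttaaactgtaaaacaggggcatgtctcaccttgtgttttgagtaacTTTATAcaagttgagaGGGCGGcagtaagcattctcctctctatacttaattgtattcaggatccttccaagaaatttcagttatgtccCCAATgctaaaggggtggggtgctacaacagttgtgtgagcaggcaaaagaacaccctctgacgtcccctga
Cadm2: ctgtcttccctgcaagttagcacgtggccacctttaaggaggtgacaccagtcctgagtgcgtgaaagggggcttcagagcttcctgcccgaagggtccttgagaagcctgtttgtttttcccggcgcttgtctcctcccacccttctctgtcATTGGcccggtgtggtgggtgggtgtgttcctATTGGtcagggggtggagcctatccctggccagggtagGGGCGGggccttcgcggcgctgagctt

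All 3 stretches held CCAAT and GGGCGG, which are common, being present in 33.8% and 32.7% of the 32851 stretches of this length in the table. Glul had CCAAT at 113 and 50 bases before the start and GGGCGG at 33. Cadm2 was similar, with CCAAT at 97 and 65 and GGGCGG at 27. Slc1a3 had 3 CCAAT matches, at 233, 216 and 72 bases, GGGCGG at 145, and TATAAA at 161, a motif found in 12.4% of stretches. The GC content was 64.8% for Glul, 60.8% for Cadm2 and 44.8% for Slc1a3. The letters TGANTCA (AP-1, in 6.7% of stretches), TGATGNAA (C/EBP-ATF, 3.5%), ACAAAG (SOX, 16.5%) and ACAATG (SOX, 10.7%) were searched on both strands and were not in these windows.

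The largest difference among the 16 probes was in Glul. This gene encodes glutamine synthetase, which turns glutamate and ammonia into glutamine and is a defining enzyme of satellite glia and astrocytes. Its brighter probe, A_52_P101279 (chromosome 1, 153870358 to 153870417 on build mm7, as the array files give it), read 3.77, 3.74, 3.67 and 3.83 on uninjured arrays 1 to 4 and 4.28, 4.51, 4.51, 4.73 and 4.65 on injured arrays 1 to 5, as log2 of DRG over reference. Every injured array lay above every uninjured array, and injured array 1 was the lowest of its group. The group means were 3.75 ± 0.07 (SD, n = 4) and 4.54 ± 0.17 (SD, n = 5), with a 95% interval of 0.59 to 0.98 for the difference and a limma adjusted p of 0.000135. The exact permutation test (two-sided, over every division of the 9 arrays into 4 and 5) gave p = 0.00794, the smallest possible. On the slide that held both groups the difference was 0.71, with 3 of 3 injured arrays above the uninjured one. The limma fit with slide as a block gave the same difference, which rests on the same 1 uninjured array, and kept the call (adjusted p = 0.0423).

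The dimmer Glul probe, A_51_P441798 (chromosome 1, 153869393 to 153869452), rose less. It read 2.04, 1.91, 2.11 and 2.26 on the uninjured arrays and 2.21, 2.75, 2.47, 2.66 and 2.44 on the injured arrays. Injured array 1 fell within the uninjured range, and the others were above it. The difference was 0.43 ± 0.11 (SE), with a limma adjusted p of 0.0184 and p = 0.0238 in the exact permutation test. The changes on the Glul probes differed by 0.36, which did not pass the exact permutation test once adjusted over the 7 pairs of probes of the same gene (adjusted p = 0.0833). With slide as a block the limma adjusted p of this probe was 0.303, and without injured arrays 2 and 4 it was 0.106. Leaving out uninjured array 1 or 2 also ended the call (adjusted p = 0.0534 and 0.0541).

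Slc1a3 encodes GLAST, the glial glutamate transporter that brings glutamate into the cell for Glul to convert. Its brightest probe, A_51_P268697 (chromosome 15, 8463725 to 8463784), read 2.32, 2.27, 2.26 and 2.32 on the uninjured arrays and 2.47, 2.62, 2.44, 2.38 and 2.65 on the injured arrays. All injured arrays lay above the uninjured ones, by a small margin for injured array 4. The difference of 0.22 ± 0.07 (SE) was a 1.17-fold change, with a limma adjusted p of 0.0399 and p = 0.0159 in the exact permutation test. The call ended in 14 of the alternatives tried, among them slide as a block (limma adjusted p = 0.241) and the omission of any single array except injured 3 or injured 4.

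The other Slc1a3 probes showed no such difference. The second, A_52_P378975 (chromosome 15, 8510062 to 8510121), read 0.28, 0.082, 0.49 and 0.28 on the uninjured arrays and 0.31, 0.25, 0.26, 0.23 and 0.36 on the injured arrays. The groups overlapped, and the difference of 0.0024 had a 95% interval of -0.17 to 0.18 (limma adjusted p = 0.989). The gap between the changes of the first and second probes was 0.22, with an exact permutation p of 0.0397 and 0.0926 after adjustment over the 7 pairs. The third, A_51_P333324 (chromosome 15, 8516314 to 8516373), was not well above background on any array, with Cy5 signals of 55.6 to 75 over a local background of 44.0 to 63.0, and was not tested.

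Other genes of glutamate uptake and recycling moved in both directions. Of 24 probes tested for this list of 12 genes, 8 were higher and 4 lower (10.5% and 13.1% of all probes), and the median difference was 0.21. Of the 8 higher probes, 6 were of Slc38a1. Slc38a1, a transporter that takes up glutamine, had the largest rise at 0.71 ± 0.07 (SE, limma adjusted p = 3.55e-05). Slc1a2, the other main glial glutamate transporter gene, rose by 0.51 on 1 probe (limma adjusted p = 0.0104), and its other probe tested read 0.20 (adjusted p = 0.0561). Slc1a1, the glutamate transporter gene of neurons, fell by 0.93 and 0.69 on its probes (limma adjusted p = 4.9e-05 and 0.000111), the largest fall of the list. Gls2, which makes glutamate from glutamine, fell by 0.42 (limma adjusted p = 0.00962).

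**Figure D2:**
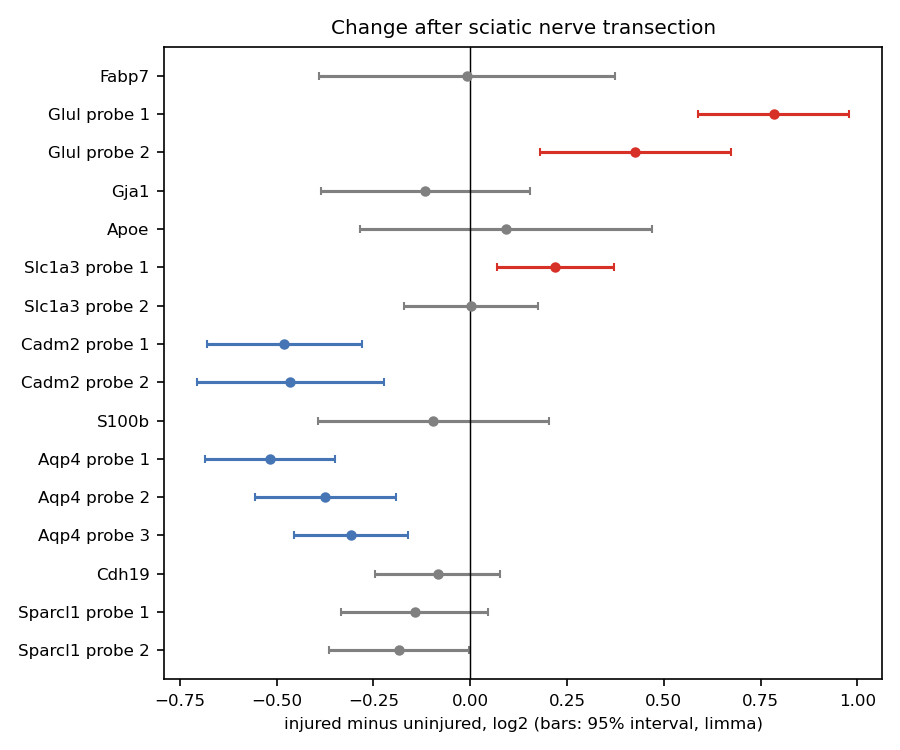
The difference between injured and uninjured arrays is plotted on the horizontal axis, in log2 units, for each of the 16 probes tested, with its 95% interval from limma as a bar. Red marks the 3 probes called higher, blue the 5 called lower and grey the 8 that were not called. Glul probe 1 at 0.78 stands furthest to the right, and the probes of Cadm2 and Aqp4 lie between -0.31 and -0.52.

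Aqp4 encodes the water channel of astrocyte endfeet, and its transcript is also known from satellite glia. Its brightest probe, A_51_P419319, read 2.25, 2.39, 2.19 and 2.53 on the uninjured arrays and 1.90, 1.73, 1.86, 1.79 and 1.83 on the injured arrays. The second, A_52_P25710, read 1.09, 1.37, 1.08 and 1.02 on the uninjured arrays and 0.93, 0.70, 0.79, 0.73 and 0.68 on the injured arrays. The third, A_52_P625527, read 1.16, 1.08, 1.09 and 1.28 on the uninjured arrays and 0.96, 0.83, 0.89, 0.75 and 0.80 on the injured arrays. On each of the 3 probes every injured array lay below every uninjured array, and injured array 1 was the highest injured array.

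The Aqp4 probes fell by 0.52 ± 0.08, 0.37 ± 0.08 and 0.31 ± 0.07 (SE), and their adjusted p in limma was 0.000769, 0.00817 and 0.00723. The exact permutation test gave its smallest value, p = 0.00794, for each. The probes match the same transcript and are not independent of each other. They are dim, with Cy5 signals of 505 or less, and an offset of 50 is added to every signal before the logarithm, which draws the ratios of dim probes toward 0. With an offset of 0 the differences were -0.76, -0.73 and -0.47, and the third no longer passed limma's test (adjusted p = 0.073). With Agilent's own ratio they were -0.91, -0.65 and -0.48, and only the second passed (limma adjusted p = 0.164, 0.0275 and 0.349). The reference signal of the first probe was not well above background on any array, and in the Cy5 channel alone the differences were -0.46, -0.31 and -0.34 (limma adjusted p = 0.00918, 0.055 and 0.0414). On the slide that held both groups the 3 injured arrays were again below the uninjured one on each probe, by 0.43, 0.32 and 0.30, but with slide as a block none of the 3 passed (limma adjusted p = 0.137, 0.309 and 0.243).

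The channel and gap junction genes around Aqp4 and Gja1 had 2 higher and 1 lower of 14 probes tested, near the share called over all probes (23.5%). Gja1 encodes connexin 43, a gap junction protein of satellite glia, and its probe A_52_P174915 (chromosome 10, 56207239 to 56207298) was the only one of the 16 below the reference RNA. It was printed on 10 spots, whose log2 ratios differed within an array by an SD of only 0.026 to 0.045. Averaged over its spots, Gja1 read -1.65, -1.96, -1.60 and -1.27 on the uninjured arrays and -1.81, -1.77, -1.71, -1.84 and -1.53 on the injured arrays. The groups overlapped, with the highest and the lowest value both among uninjured arrays, and the difference of -0.12 had a 95% interval of -0.39 to 0.15 (limma adjusted p = 0.548).

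Among its relatives, Gjc1, which encodes connexin 45, rose by 0.38 and 0.42 on its probes (limma adjusted p = 0.0037 and 0.000471). Gjd2, which encodes the neuronal connexin 36, fell by 0.65 (limma adjusted p = 0.00148). The water channel gene Aqp1 was not called.

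Cadm2 and Cdh19 encode adhesion proteins. Cadm2 is a member of the nectin-like immunoglobulin family that is made by neurons as well as by glia. Its probe A_52_P137236 (chromosome 16, 66581167 to 66581226), found through an older gene name, read 2.18, 1.98, 1.92 and 1.999 on the uninjured arrays and 1.74, 1.42, 1.59, 1.61 and 1.33 on the injured arrays. Its probe A_51_P442642 (chromosome 16, 66586656 to 66586715) read 1.71, 1.72, 2.02 and 1.84 on the uninjured arrays and 1.62, 1.41, 1.38, 1.33 and 1.04 on the injured arrays. On both probes all injured arrays were below all uninjured arrays, with injured array 1 the highest and injured array 5 the lowest of the injured group.

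Cadm2 fell by 0.48 ± 0.09 and 0.46 ± 0.11 (SE), a 1.39-fold and a 1.38-fold change, at a limma adjusted p of 0.0034 for the first probe and 0.0111 for the second, and at p = 0.00794 and 0.0159 by exact permutation. The changes of the probes differed by 0.015 (exact permutation adjusted p = 0.889). The first probe kept its call with slide as a block, at a difference of -0.68 (limma adjusted p = 0.0437), and the second did not (-0.36, adjusted p = 0.379). Both were dim, with Cy5 signals of 130 to 427, and the reference was well above background on 0 arrays for the first and on 1 array for the second, so their levels over the reference are limited by the reference's own detection. With an offset of 0 the differences were -0.86 and -0.34, and the second no longer passed (limma adjusted p = 0.395). In the Cy5 channel alone the differences were -0.42 and -0.56 (limma adjusted p = 0.0217 and 0.00576). With Agilent's own ratio neither passed (-0.33 and -0.20, limma adjusted p = 0.368 and 0.871).

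Cdh19, a cadherin of the Schwann cell lineage, was close to the limit of detection. Its probe A_52_P610113 (chromosome 1, 110789243 to 110792298, a span longer than the probe) had Cy5 signals of 77.5 to 141 and read 0.79, 0.57, 0.62 and 0.67 on the uninjured arrays and 0.66, 0.71, 0.54, 0.51 and 0.46 on the injured arrays. The groups overlapped, and the difference of -0.08 had a 95% interval of -0.25 to 0.08 (limma adjusted p = 0.453). Its reference signal was not well above background on any array, and the difference was -0.26 with an offset of 0, -0.27 with Agilent's ratio and -0.04 without uninjured array 1, none of which passed.

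The list of nectin-like, cadherin, SPARC and S100 relatives had 2 of 21 probes higher (10.5% of all probes) and 7 lower (13.1% of all probes). Cadm1, a nectin-like relative of Cadm2, fell on all of its 3 probes by 0.28 to 0.59 (limma adjusted p = 0.0015 to 0.016), with 0.59 the largest fall of the list. Cdh11 fell by 0.54 and 0.43 on 2 of its 3 probes, with -0.17 on the third (limma adjusted p = 0.559), and Cdh1 fell by 0.37. Cadm3 and Cadm4 were not called. The largest rise was that of S100a11, a calcium-binding relative of S100b, at 0.81 ± 0.06 (SE, limma adjusted p = 9.65e-06), and S100a10 rose by 0.37.

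The brightest genes of the set did not pass the test. Fabp7 encodes the brain fatty acid binding protein, a carrier of long-chain fatty acids that is widely used as a satellite glial marker. Its probe A_51_P290074 (chromosome 10, 57609720 to 57609779) read 6.89, 6.33, 6.55 and 6.89 on the uninjured arrays and 6.41, 6.53, 6.39, 6.79 and 7.17 on the injured arrays. Injured array 5 was the highest of all, and the other injured arrays lay within the uninjured range. The difference of -0.0078 ± 0.17 (SE) had a 95% interval of -0.39 to 0.37 (limma adjusted p = 0.983). Changes within this interval, in either direction, are compatible with these arrays. In the Cy5 channel alone the difference was -0.32 (limma adjusted p = 0.315), and the reference channel at this probe differed by -0.25 (adjusted p = 0.586).

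Apoe encodes apolipoprotein E, a protein of lipoprotein particles that is made by glia and macrophages. Its probe A_51_P171999 (chromosome 7, 17378757 to 17378816), on 10 spots, read 6.02, 5.89, 5.74 and 6.21 on the uninjured arrays and 5.70, 5.99, 5.89, 6.05 and 6.66 on the injured arrays. Injured array 5 was again the highest, and injured array 1 was the lowest of all 9. The difference was 0.09, with a 95% interval of -0.28 to 0.47 (limma adjusted p = 0.75), and without injured array 5 it was -0.06. Spots of the same array differed by an SD of 0.035 to 0.085, against 0.36 between the injured arrays.

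S100b encodes a calcium-binding protein of satellite glia, Schwann cells and astrocytes. Its probe A_51_P208083 (chromosome 10, 75915615 to 75915674) read 8.86, 8.76, 8.92 and 8.91 on the uninjured arrays and 8.50, 8.77, 8.58, 8.71 and 9.27 on the injured arrays. The uninjured arrays lay within 0.16 of each other, and the injured arrays spread over 0.77 on both sides of them. The difference of -0.10 had a 95% interval of -0.39 to 0.20 (limma adjusted p = 0.668). It was -0.22 without injured array 5 (adjusted p = 0.0532 in limma) and -0.03 without injured array 1.

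Sparcl1 encodes hevin, a secreted matrix protein of astrocytes and endothelium as well as of satellite glia. Its probe A_52_P64356 (chromosome 5, 103268433 to 103268492) read 7.55, 7.30, 7.51 and 7.47 on the uninjured arrays and 7.18, 7.47, 7.18, 7.28 and 7.47 on the injured arrays. Its probe A_51_P210510 (chromosome 5, 103268554 to 103268613) read 6.91, 6.59, 6.82 and 6.80 on the uninjured arrays and 6.56, 6.71, 6.43, 6.63 and 6.66 on the injured arrays. The groups overlapped on both probes, and uninjured array 2 was the lowest uninjured array on each.

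The Sparcl1 differences were -0.14 (95% interval -0.33 to 0.05) and -0.18 (95% interval -0.36 to -0.0043), and limma gave them an adjusted p of 0.27 and 0.133. The second passed when uninjured array 2 was left out (-0.25, adjusted p = 0.0456) and when limma's array weights were used (-0.22, adjusted p = 0.0434).

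**Figure D3:**
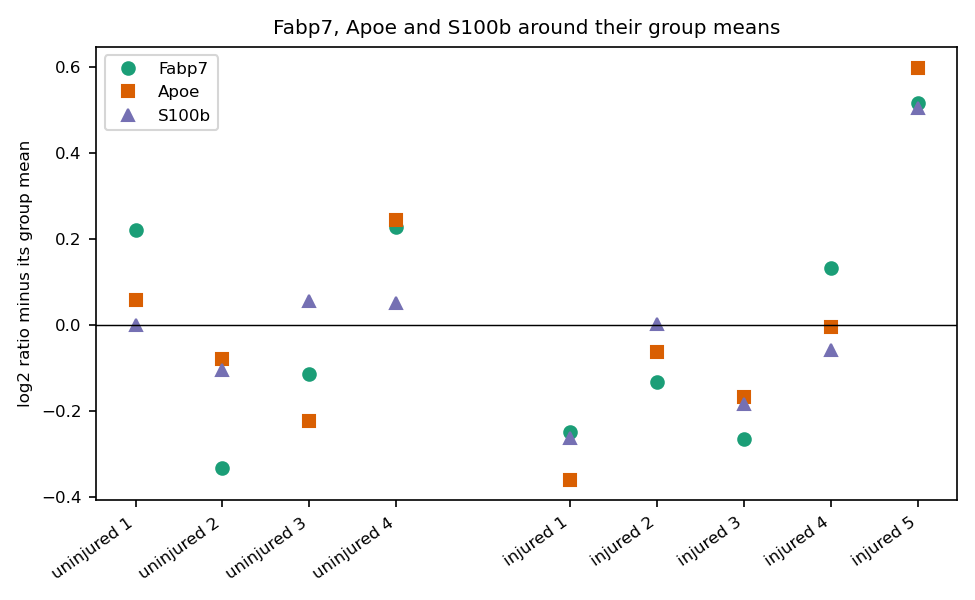
The log2 ratios of Fabp7, Apoe and S100b, each minus the mean of its group, are plotted on the vertical axis for the 4 uninjured and 5 injured arrays named on the horizontal axis. After loess normalization, the ratios of all 3 genes are at their highest on injured array 5, between 0.50 and 0.60 above the injured mean.

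Fabp7, Apoe and S100b varied together from array to array. Across the 45 pairs of the 10 genes (brightest probe of each, deviations from the group means, 9 arrays), r was above 0 for 29 pairs, with a median of 0.27. The 3 highest were Apoe with S100b (r = 0.89), Apoe with Fabp7 (0.88) and Fabp7 with S100b (0.82). These genes were also among the brightest spots, with Cy5 signals of 49000 or more, and their points share the same arrays, labelling reactions and loess curves. Injured array 5 had the lowest median Cy5 signal, and the part of that in these values was not tested. Before normalization the Cy5 signals on that array were not the highest for any of the 3. They were 55490 for Fabp7, 288600 for Apoe and 225700 for S100b, the last being the lowest of the 9 arrays. How much r depends on this array was not tested.

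Over all 9 arrays, genes outside the set whose log2 ratios came close to a member's included Ccnl1 for Glul (Pearson r = 0.992) and Hmox2 for Aqp4 (0.990). Each is the best match of its member among all probes tested, over only 9 points that share the division into groups, and is given as a description.

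The fatty acid binding and apolipoprotein list had 3 of 13 probes higher (10.5% of all probes) and 0 lower (13.1% of all probes) in limma. Relative to the uninjured mean, its list means were -0.44 to 0.29 on uninjured and 0.33 to 0.64 on injured arrays. Abca1, which exports cholesterol to apolipoproteins such as Apoe, had the largest rise, at 1.66 ± 0.06 (SE, limma adjusted p = 5.3e-08). It went from 1.45 ± 0.05 to 3.11 ± 0.09 (SD, n = 4 and 5). Fabp3, Fabp4, Fabp5, Apod and Apoc1 were not called.

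Further satellite glial genes outside the set gave few calls. Of 39 probes tested for 20 such genes, 1 was higher and 1 lower (10.5% and 13.1% of all probes), with a median difference of 0.06. Lgi4, a secreted glial protein of the peripheral nerve, rose by 0.52 on 1 of its probes (limma adjusted p = 0.0139). Hey1, a target of Notch signalling, fell by 0.31 (limma adjusted p = 0.00988). Kcnj10, the potassium channel of satellite glia, read 5.52 ± 0.13 and 5.50 ± 0.22 (SD, n = 4 and 5).

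Of the genes known to rise in reactive glia, 6 of 14 probes were higher in limma (10.5% of all probes) and 0 lower. Among the higher probes is that of Gfap, the filament gene by which reactive satellite glia and astrocytes are recognised, and it passed the filter only through the injured arrays, being well above background on 1 of the 4 uninjured and all 5 injured arrays. Its log2 ratios of 0.07 ± 0.14 and 1.15 ± 0.17 (SD, n = 4 and 5) are therefore given as a description. Its call is counted among the 6, but it was favoured by the filter and is not read as a result. A second Gfap probe was not called (0.12, adjusted p = 0.303). Cd44, Vim and Stat3 held the other calls. A further Cd44 probe read 0.0018 (limma adjusted p = 0.99), and Ngfr, Serpina3n, Lcn2, Nes and Ccnd1 were not called. Which cells of the ganglion these calls come from was not tested.

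**Figure D4:**
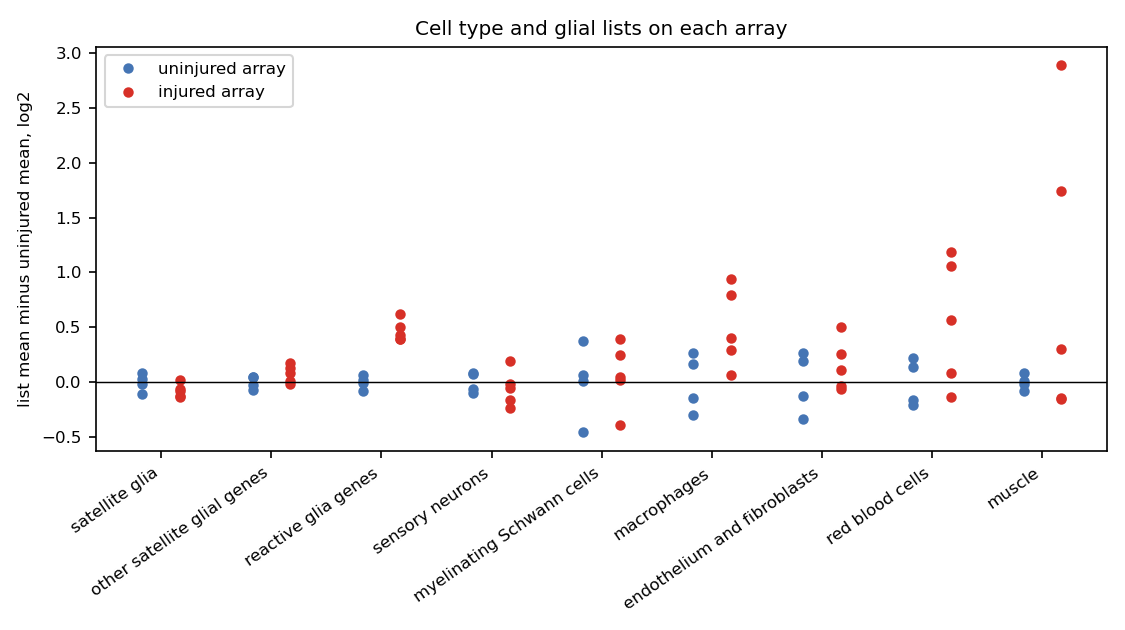
Each point is 1 array, with uninjured arrays in blue and injured arrays in red, and the vertical axis gives the mean log2 ratio of a gene list on that array minus the mean of the uninjured arrays. The mean over the satellite glial probes lies between -0.13 and 0.09 on all arrays, although differences of single probes ran from -0.52 to 0.78. The muscle, red blood cell and macrophage lists reach 2.89, 1.19 and 0.94 on single injured arrays.

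Genes of other cells of the ganglion are given beside these values because several members are not particular to satellite glia. As a mean over probes, the satellite glial genes stood between -0.10 and 0.09 on uninjured arrays and between -0.13 and 0.02 on injured arrays, relative to the uninjured mean. Over all probes 10.5% were higher and 13.1% lower, against which each of the following counts is to be read. Macrophage genes had 4 of 19 probes higher and 0 lower, with list means of -0.29 to 0.27 on uninjured and 0.07 to 0.94 on injured arrays. Genes of sensory neurons had 1 of 20 probes higher and 4 lower, with means of -0.10 to 0.08 and -0.23 to 0.19.

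Myelinating Schwann cell genes had 0 of 15 probes higher and 1 lower, and those of endothelium and fibroblasts 1 of 17 higher and 0 lower. Red blood cell genes had 0 of 8 probes called and muscle genes 0 of 10. The muscle list reached 2.89 on injured array 4, and the red blood cell list 1.19 on injured array 2 and 1.06 on injured array 5. On injured array 5 the normalized ratios of Fabp7, Apoe and S100b, though not their raw signals, were highest. Dividing cell genes had 2 of 11 probes higher. Of the central nervous system glia list 1 of 4 probes tested was higher, the same Gfap probe, whose call is not read as a result. Olig1, Olig2, Mog and Opalin were not above background on any array. The part of these cells in the values of the 10 genes was not tested.

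Without injured arrays 2 and 4, whose muscle genes were raised, 3 of the 16 probes were called, against 12.9% of all probes. These were the first probes of Glul (0.73, limma adjusted p = 0.00214), Cadm2 (-0.46, 0.0265) and Aqp4 (-0.47, 0.0121).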

How the data were processed

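RNA of L3/L4 DRG (Cy5) and a universal mouse reference (Cy3) were measured on 9 arrays, 4 uninjured and 5 injured, grouped by the treatment in the labels. The deposited scanner intensities are mean spot and median local background brightness per channel, from Agilent Feature Extraction 10.5.1.1. The deposited log10 ratios carry Agilent's background model and dye normalization per the file headers. The value table that the authors deposited holds the log2 of Cy5 over Cy3, for which the labels name limma, and served as an alternative.

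Intensities were read into R (4.3.3) and handled by limma (3.58.1). Background was corrected by normexp (offset 50, fitted per array and channel on spots without a non-uniform background), because on injured array 2 a fit on all spots gave a Cy5 background mean of -358, against -16.7 to -12.6. Loess within arrays followed. Control spots and outlier spots were left out, repeated spots averaged, and probes kept with Cy5 well above background on at least 4 arrays. Of 41174 probes, 23082 were named by accession, 6582 by symbol and 3073 by an older name, and 8437 kept the file's name. For the 10 genes these were 12, 4 and 1 probes. Probe coordinates are on build mm7 as in the files, and exon positions on that build were not analysed here. No column of another series was used.

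Groups were compared with lmFit and eBayes and Benjamini-Hochberg adjustment, single probes also with exact permutation tests. The steps were tested on simulated data. All probes of the 10 genes are named, and, of each related list, the largest called rise and fall and relatives of a member. Of the genes most like a member over the arrays, the 3 with the highest r were to be named. Results for some genes that these rules name are not reported here. Kcnj10, Gls2, Cd44, Vim and Stat3 were named after their values were seen. The members, lists and tests were chosen with earlier results of these data known. Alternatives covered background, normalization, filter, slide, weights, probe rule, threshold, test and single arrays, and, added after the data were seen, injured arrays 2 and 4 left out. Figures used Python 3.11.15 and matplotlib 3.10.9.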

Additional observations from a re-analysis of the deposited data

How the results depend on the processing

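Glul probe 1 kept its direction and its call in all alternatives run, with differences of 0.71 to 0.85. The 8 calls among the 16 probes were 5 with an offset of 0 (3 lower) and 4 with Agilent's ratio (1 lower). With both channels above background on all arrays 4 were called (1 lower). That filter left out Cdh19, the Cadm2 probes, and Aqp4 probes 1 and 3, so fewer than 16 probes were tested. Over the 10 genes, 4 were called with the brightest probe of each gene (2 lower) and 3 with the mean of a gene's probes (2 lower, 1 higher). Of the 16 probes, 2 were called with slide as a block (1 lower, 1 higher), 1 above 1.5-fold (0 lower, 1 higher) and 5 at an adjusted p under 0.01 (1 higher). Without injured arrays 2 and 4, a choice made after seeing the data, 3 were called (2 lower, 1 higher), against 12.9% of all probes. Probes called higher were 1 with the background fitted on all spots and 1 with median centring. The median difference of -0.11 became -0.16 with the all-spot fit, -0.20 with median centring and -0.15 with Agilent's ratio. It was -0.18 with slide as a block and -0.18 with array weights. With the strict filter (both channels above background) it was -0.0078, where the probes left kept their differences and the others dropped out. Leaving out each array in turn gave 6 to 8 calls, 5 to 6 lower and 1 to 3 higher (1 without uninjured array 1 or 2), and medians from -0.17 (without injured array 5) to -0.080 (without uninjured array 4), with -0.16 without uninjured array 2. Over all probes, 7339 calls became 3516 with median centring and 1507 with slide as a block (55.54% of them higher, against 44.5%). They became 1629 above 1.5-fold (57.09% higher), 3951 at an adjusted p under 0.01 and 4032 without injured arrays 2 and 4. With an offset of 0 they were 6275, with Agilent's ratio 5921 and with the strict filter 6615. Counted by gene, they were 5295 with the brightest probe and 5233 with the mean of a gene's probes. The numbers of genes tested are not given here, so 4 and 3 of the 10 genes cannot be set against a share over all genes. The 31 calls in the Cy3 channel became 15 with no normalization between arrays. The direction turned for values near 0. These were Fabp7 (0.0044 with no background correction, 0.012 with an offset of 0, 0.028 with Agilent's ratio, 0.055 with slide as a random block), the second Slc1a3 probe (-0.034 with the all-spot fit, -0.0061 with median centring, -0.058 with array weights) and Apoe (-0.042 with median centring). With single arrays left out Fabp7 ranged from -0.14 to 0.068, the second Slc1a3 probe from -0.064 to 0.072, Apoe from -0.057 to 0.18, Gja1 from -0.23 to 0.00025, the Schwann cell list from -0.12 to 0.19 and the neuron list from -0.14 to 0.012. The Schwann cell list's median of 0.028 became -0.087 with the all-spot fit, -0.032 with median centring, -0.39 with slide as a block and -0.15 without injured arrays 2 and 4, and the neuron list's -0.039 became 0.0024 with Agilent's ratio. The causes were not tested. The median of all probes was -0.051 with median centring, against -0.0045. Slide as a random block had a correlation of -0.202. Scan dates coincided with slides and gave no separate fit. No paired analysis was possible because no label ties a replicate number or an animal to the samples. Dim probes (Cdh19, Aqp4, Cadm2, Slc1a3 probe 2) are limited by signal over background.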
